A study of Rattus norvegicus with 2 samples.

Results

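Creatine kinases and the carriers that move ATP out of mitochondria were compared between the failing heart of high-salt-fed and the heart of low-salt-fed rats of the Dahl salt-sensitive strain. The 6 genes are Ckm, Ckmt2, Ckb, Slc25a4, Slc25a5 and Vdac1, and every probe set with one of these symbols in the platform annotation was taken, which gave 6 of 4736 named genes and 9 of the 8740 probe sets that are not controls. The rats were male and 17 weeks old, and the strain becomes hypertensive when fed salt. The high-salt group, labelled with chronic heart failure, and the low-salt group, for which no disease is labelled, had 1 array each of heart RNA labelled with biotin. The labels do not say which chamber was taken, or whether an RNA came from 1 animal or from a pool. There are no replicates, so each difference is one between these 2 arrays only, without a p-value. In whole tissue, fewer muscle cells and less RNA per muscle cell cannot be told apart.

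Creatine kinase moves a phosphate group between ATP and creatine. In heart muscle a mitochondrial form, encoded by Ckmt2, makes phosphocreatine beside the inner membrane, and the cytosolic muscle form, encoded by Ckm, uses it to rebuild ATP at the myofibrils and ion pumps. Ckb encodes the cytosolic brain form, which many tissues express. ATP leaves the mitochondrial matrix through the adenine nucleotide translocators, of which Slc25a4 encodes the form typical of heart and skeletal muscle and Slc25a5 a widely expressed form. It crosses the outer membrane through porins such as the one encoded by Vdac1. A shift from muscle to widely expressed isoforms of creatine kinase is well known from hypertrophied and failing hearts.

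The 5 genes of the paralogous pairs differ in the sequence before their start sites, which is shown as a description. Whether this sequence bears on the ratios read on these arrays was not tested. The 250 bases before each start are from RefSeq on build GRCr8, written 5′ to 3′ on the strand of the gene, with capitals marking the E-box letters CANNTG, which read the same on both strands. The windows are chr1:88189211-88189460 (plus strand) for Ckm, chr2:24845512-24845761 (minus) for Ckmt2, chr6:136553465-136553714 (minus) for Ckb, chr16:52805271-52805520 (plus) for Slc25a4 and chrX:120897366-120897615 (plus) for Slc25a5.
Ckm: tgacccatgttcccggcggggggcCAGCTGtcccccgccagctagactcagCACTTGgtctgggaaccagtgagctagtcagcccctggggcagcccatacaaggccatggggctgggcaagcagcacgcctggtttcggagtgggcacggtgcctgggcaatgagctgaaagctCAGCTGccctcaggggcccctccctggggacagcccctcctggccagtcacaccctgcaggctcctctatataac
Ckmt2: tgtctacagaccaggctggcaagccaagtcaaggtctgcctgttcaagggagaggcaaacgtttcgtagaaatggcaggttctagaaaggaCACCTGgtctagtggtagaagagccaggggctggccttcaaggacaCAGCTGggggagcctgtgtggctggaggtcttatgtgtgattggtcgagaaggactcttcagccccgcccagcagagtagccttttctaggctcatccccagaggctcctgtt
Ckb: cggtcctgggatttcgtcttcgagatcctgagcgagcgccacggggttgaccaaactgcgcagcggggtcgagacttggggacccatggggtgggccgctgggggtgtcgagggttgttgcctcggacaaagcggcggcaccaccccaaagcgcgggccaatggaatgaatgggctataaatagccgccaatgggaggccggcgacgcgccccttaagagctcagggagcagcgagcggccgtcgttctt
Slc25a4: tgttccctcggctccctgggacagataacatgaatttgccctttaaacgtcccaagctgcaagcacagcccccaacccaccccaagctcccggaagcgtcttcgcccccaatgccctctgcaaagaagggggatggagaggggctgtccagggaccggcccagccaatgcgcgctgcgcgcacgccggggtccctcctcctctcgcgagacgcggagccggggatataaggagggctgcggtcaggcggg
Slc25a5: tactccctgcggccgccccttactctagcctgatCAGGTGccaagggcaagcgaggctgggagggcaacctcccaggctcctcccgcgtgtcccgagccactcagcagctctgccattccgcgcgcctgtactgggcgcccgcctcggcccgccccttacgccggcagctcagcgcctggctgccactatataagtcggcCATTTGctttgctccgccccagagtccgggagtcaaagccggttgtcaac
CANNTG occurred 3 times in the Ckm window and 2 times in the Ckmt2 window. It occurred 2 times in the Slc25a5 window and was not found in those of Ckb and Slc25a4. Of 33469 rat promoter windows of this length, 65.5% hold at least 1 such match, so its presence is common. TATAA, searched on both strands, was found in all of these windows except that of Ckmt2, and in 24.0% of all windows. The Ckm and Ckmt2 windows held 6 and 4 CG dinucleotides, close to the median of 5 over all windows, against 25 for Ckb, 19 for Slc25a4 and 20 for Slc25a5. The window of Vdac1, which has 33, is not printed. The letters TNAAGGTCA, a half-site of oestrogen-related receptors, were not found in any of the 6 windows, and 1.04% of all windows hold them. A match is a description of letters in a window and says nothing of which factor binds there.

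The arrays gave 1 intensity per probe set, on a linear scale that includes values below 0. Both arrays had a 2% trimmed mean of 100.2. A noise floor of 126.4, the 95th percentile of the size of the values below 0, was taken as the level above which an intensity has a reliable order. It was reached on both arrays by 1561 probe sets, among them all 9 of these genes. The dimmest reading of the 9 lay 1.39-fold above it and the brightest probe set stayed at least 30.6-fold above it on both arrays. As a partial measure of error, log2 ratios of probe sets of the same gene differed with an SD of 0.22 over 231 genes, or 0.24 over the 115 genes with probe sets designed on different GenBank sequences. It leaves out all variation between animals. The probe sets of Ckmt2, Ckb and Vdac1 each come in a pair designed on 1 GenBank sequence, so the second of a pair is not an independent measurement.

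The genes of the muscle forms read lower in the failing high-salt heart and the genes of the widely expressed forms read higher, all by less than 1.5-fold, although Slc25a4 crosses 0 when centred on the added control probe sets described further on. Vdac1, put in neither group, read lower in both of its probe sets, with log2 ratios of -0.17 and -0.06. None of the 9 probe sets was past 2-fold in either direction, where 3.07% of the probe sets above the noise floor on both arrays were at least 2-fold higher and 1.41% at least 2-fold lower. None was past 1.5-fold, against 8.39% higher and 8.14% lower. Ckm had the lowest ratio and the dimmer probe set of Ckb the highest. The median log2 ratio (high over low salt) was -0.15 over the 9 probe sets, against -0.047 over all 1561.

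**Figure D1:**
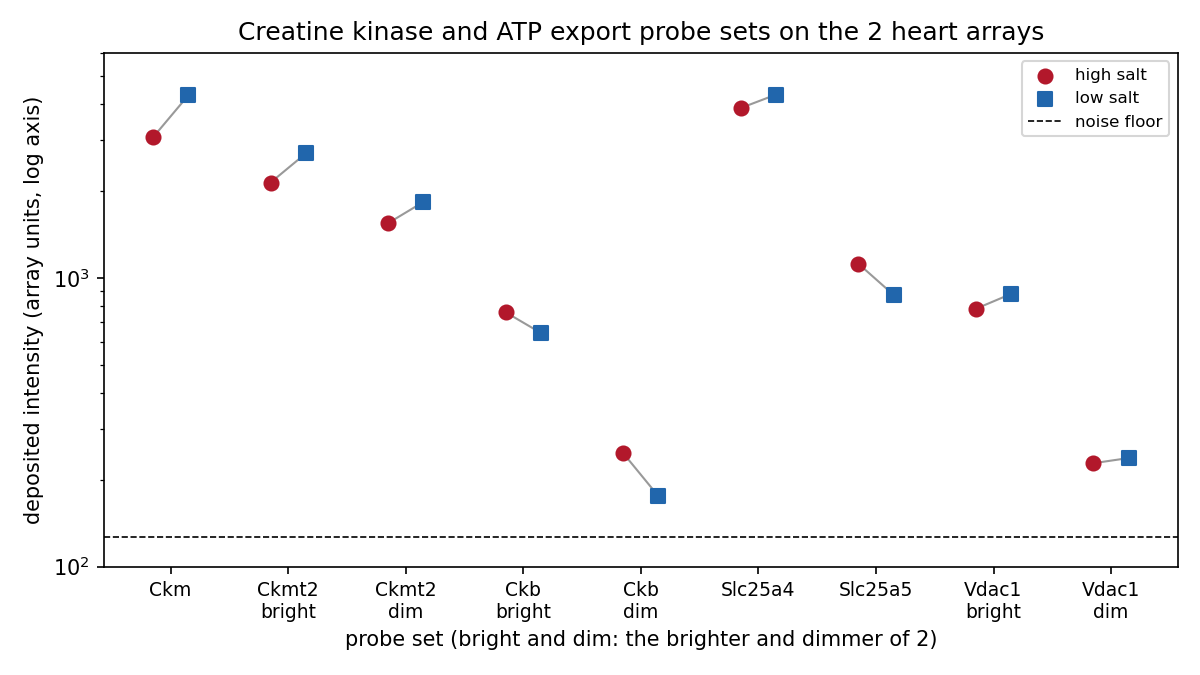
Deposited intensity (array units, log axis) of the 9 probe sets on the high-salt array (circles, left) and the low-salt array (squares, right), with 1 array per diet and the noise floor of 126.4 as a dashed line. The Ckm, Ckmt2, Slc25a4 and Vdac1 probe sets read lower on the high-salt array and the Ckb and Slc25a5 probe sets higher.

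Ckm, the cytosolic creatine kinase of muscle, read 3062.3 under high salt and 4279.7 under low salt with its single probe set M10140_at. The high-salt reading was 71.6% of the low-salt one, a log2 ratio of -0.48 that is a little more than 2 times the SD among probe sets of the same gene. Counted from the lowest, this ratio was number 184 of the 1561 probe sets above the noise floor, so a substantial minority of bright probe sets were lower still. Among the 610 probe sets with a geometric mean intensity of 500 or more, a limit chosen after the values were seen, it was number 60 from the lowest.

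Ckmt2, the mitochondrial creatine kinase of the sarcomere, read lower in both of its probe sets. X59736mRNA_g_at read 2135.5 under high salt and 2694.4 under low salt, a log2 ratio of -0.34. X59736mRNA_at read 1545.3 under high salt and 1829.8 under low salt, a log2 ratio of -0.24. The difference between high and low salt was thus in the same direction for the cytosolic and the mitochondrial kinase of muscle. The log2 ratio of Ckmt2 was 0.15 above that of Ckm, less than the SD of 0.31 that the probe set error gives for a difference of 2 genes.

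Ckb, the brain form of the cytosolic kinase, read higher in both of its probe sets. M57664_at read 759.3 under high salt and 644.0 under low salt, a log2 ratio of 0.24. The dimmer M57664_g_at read 246.9 under high salt and 175.2 under low salt, a log2 ratio of 0.49 and number 172 from the highest of the 1561. The 2 probe sets share a direction, and their ratios differ by less than the SD of 0.31 that the probe set error gives for a difference.

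Set against each other, the 2 cytosolic kinases changed unequally between these arrays. The log2 ratio of Ckb in its brighter probe set was 0.72 above that of Ckm, so the ratio of Ckb to Ckm signal was 1.65-fold higher in the high-salt heart. With the dimmer Ckb probe set the difference was 0.98, or 1.97-fold. Both exceed 2 times the SD of 0.31 for a difference of 2 genes, which measures disagreement between probe sets and not between hearts. That SD includes pairs on 1 GenBank sequence, and would be larger from the SD of 0.24 for different sequences. Over all 1561 probe sets the quartiles of the log2 ratio were -0.28 and 0.20. How often other pairs of genes differ by as much as Ckb and Ckm was not tested. A change in the ratio of Ckb to Ckm signal is not a ratio of the 2 transcripts, because intensities of different probe sets are not on a common scale.

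**Figure D2:**
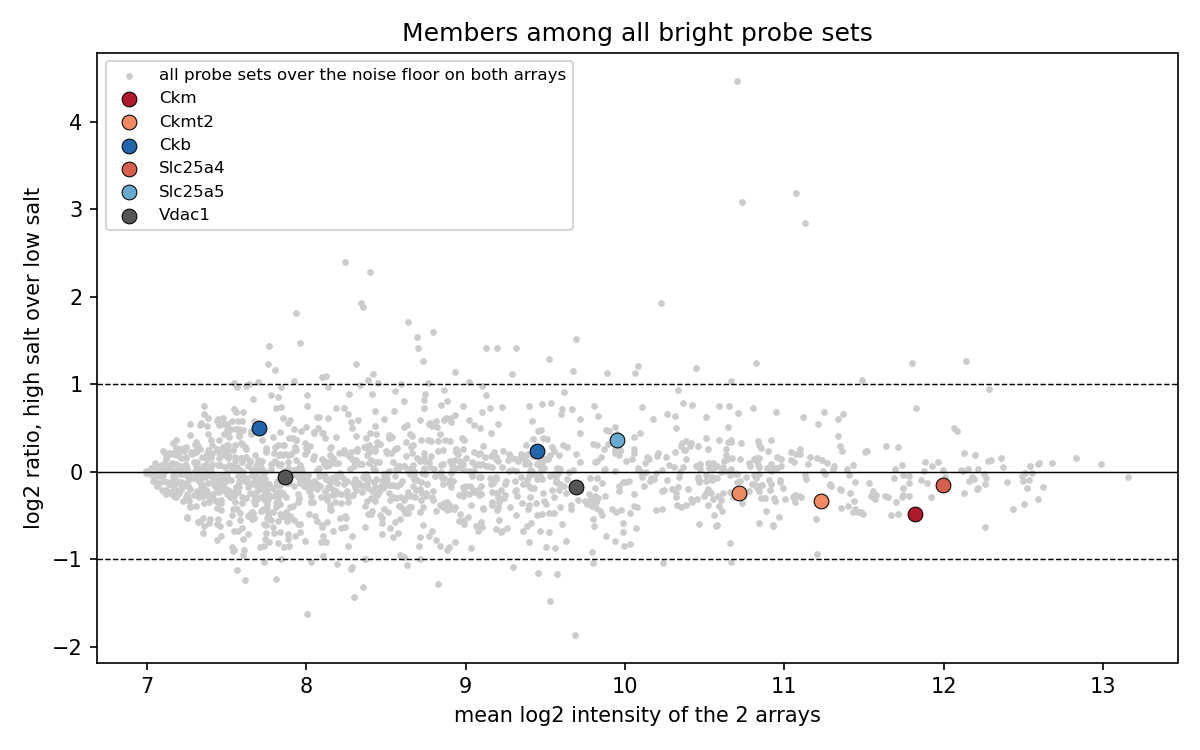
Log2 ratio (high over low salt) against the mean log2 intensity of the 2 arrays for the 1561 probe sets above the noise floor on both (grey), with the 9 probe sets coloured by gene and dashed lines at 2-fold. All 9 lie inside the dashed lines, with Ckm the lowest of them at -0.48 and the dimmer Ckb probe set the highest at 0.49.

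The adenine nucleotide translocators also read in opposite directions. Slc25a4, the muscle form, was read by D12770_s_at at 3869.6 under high salt and 4306.6 under low salt, a log2 ratio of -0.15 that lies within the SD among probe sets. Slc25a5, the widely expressed form, was read by D12771_s_at at 1119.0 under high salt and 872.2 under low salt, a log2 ratio of 0.36 and number 236 from the highest of the 1561. The log2 ratio of Slc25a5 was 0.51 above that of Slc25a4, or 1.43-fold, which is larger than the SD of 0.31 and smaller than 2 times that SD. Each gene had a single probe set, of a type (_s_at) that can share sequence with related genes, and how far each of them also detects the other translocator was not tested.

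Vdac1, the porin of the outer membrane, differed little between the arrays. AF048828_g_at read 780.9 under high salt and 879.3 under low salt, a log2 ratio of -0.17. AF048828_at read 228.0 under high salt and 237.6 under low salt, a log2 ratio of -0.06. Both lay within the SD of 0.22.

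Among themselves, the 4 probe sets of Ckm, Ckmt2 and Slc25a4 had log2 ratios between -0.48 and -0.15. The 3 probe sets of Ckb and Slc25a5 had ratios between 0.24 and 0.49, so these groups, of only 3 and 2 genes, did not overlap. The Vdac1 probe sets, in neither group, were at -0.17 and -0.06. Of all 1561 probe sets above the noise floor on both arrays, 54.5% had ratios below 0. From lowest to highest, the ratios of the brightest probe sets ran Ckm, Ckmt2, Vdac1, Slc25a4, Ckb and Slc25a5. Neighbours in this order differed by less than the SD of 0.31, except Slc25a4 and Ckb. Over the 610 bright probe sets the median log2 ratio was -0.034, with quartiles of -0.28 and 0.19.

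The arrays also carry probe sets for bacterial and phage transcripts (bioB, bioC, bioD and cre), which are commonly added to the sample before hybridisation. Whether equal amounts were added here is not given in the sources used here. Of 9 such probe sets, 5 were above the noise floor on both arrays, and 4 of these read lower on the high-salt array. The cre probe sets read 2651.5 against 3359.4 and 2186.2 against 2714.8, and the 5 log2 ratios had a median of -0.19 and ran from -0.34 to 0.15. Measured relative to that median, a setting added after the data were seen that moves the median of all probe sets by 0.19, the 9 probe sets divide into 3 lower and 6 higher instead of 6 lower and 3 higher. As deposited, 54.5% of the 1561 probe sets above the noise floor on both arrays were below 0. This centring moved their median log2 ratio from -0.047 to 0.147. Most of the 1561 thus read higher under it as well, and the changed split is not particular to the 9 probe sets. Ckm was then at -0.29 and the Ckmt2 probe sets at -0.14 and -0.05, while Slc25a4 moved to 0.04 and the Vdac1 probe sets to 0.02 and 0.13. A shift of the whole array leaves the differences between isoforms as they were. The Gapdh control probe sets had log2 ratios from -0.10 to 0.04, and the 3 beta-actin control probe sets from 0.009 to 0.22. In the opposite direction, the Actb probe set V01217_at, outside the controls, read 1169.5 under high salt and 1347.1 under low salt, a log2 ratio of -0.20. Which of these scales is nearer to the RNA per heart was not tested.

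**Figure D3:**
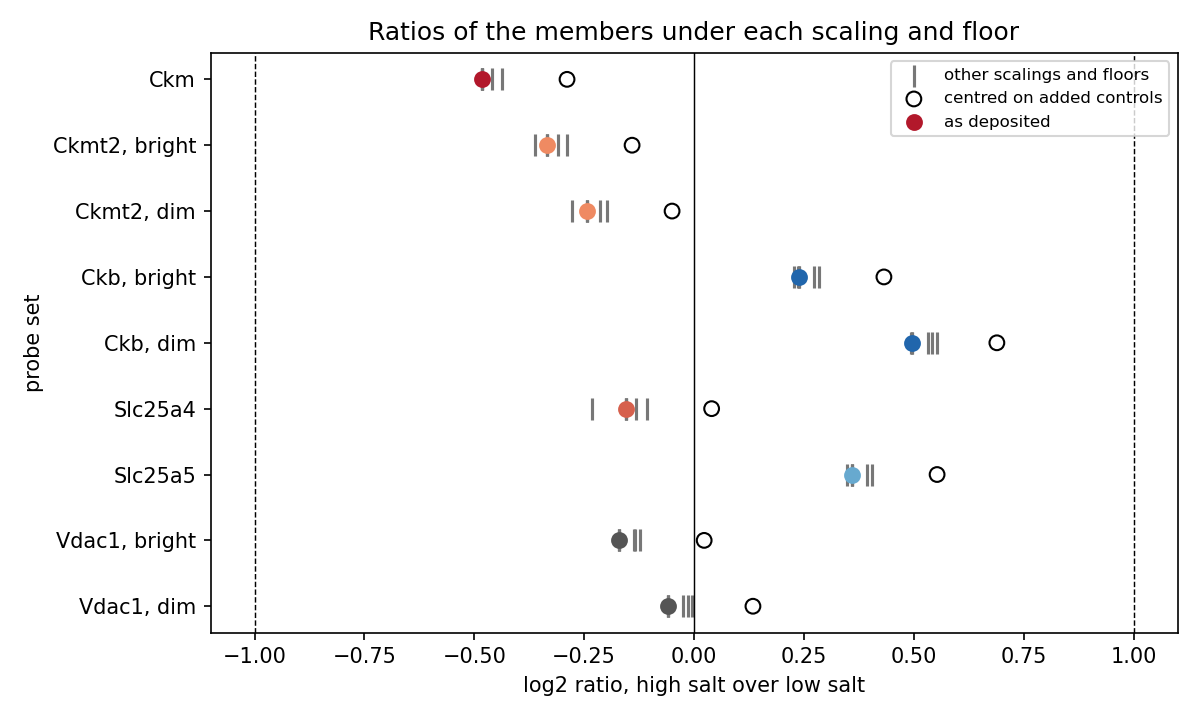
Log2 ratio (high over low salt) for each of the 9 probe sets as deposited (filled circles), under the other scalings and floors (grey ticks) and centred on the added control probe sets (open circles), with dashed lines at 2-fold. Ckm and Ckmt2 stay below 0 and Ckb and Slc25a5 above 0 in every setting drawn, while Slc25a4 and Vdac1 cross 0 when centred on the added controls. The other floors could not move these probe sets, which all lie above the noise floor.

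Genes that work next to these enzymes and carriers were read from 5 lists of 42 genes, of which 25 were measured with a probe set of 1 symbol. At 2-fold, 4 were lower and none was higher, against 7.27% of all 3451 genes measured lower and 7.30% higher. These were Slc25a20, Gamt, Ampd1 and Slc25a1, and of the 4 only Slc25a20 reached the noise floor on an array. The median log2 ratio of the 25 genes was -0.10, against -0.086 over all genes. Probe sets with 1 symbol for Vdac2 and Vdac3 were not found in the annotation, so the other porins are not analysed here.

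Creatine enters heart muscle through the transporter encoded by Slc6a8, which read 374.9 under high salt and 402.6 under low salt, a log2 ratio of -0.10. The genes of creatine synthesis did not reach the noise floor on either array, with Gatm at 18.2 against 19.0 and the brighter of 2 Gamt probe sets at 30.6 against 118.9. Both probe sets of Ckmt1, the widely expressed mitochondrial creatine kinase, read less than 10.9, the lower floor, on each array. The mitochondrial kinase therefore had no measured counterpart of Ckb on these arrays.

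Slc25a3, the mitochondrial phosphate carrier that supplies phosphate for ATP synthesis, read 3373.3 under high salt and 3690.9 under low salt. Its log2 ratio of -0.13 was close to the -0.15 of Slc25a4. Ak3, an adenylate kinase of the mitochondrial matrix that uses GTP, read 442.2 under high salt and 291.8 under low salt, a 1.52-fold higher reading. Ak4, Ampd1 and Ampd3, also of adenine nucleotide metabolism, stayed under the noise floor.

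Hexokinases dock on the outer membrane porin and draw on exported ATP. Hk1 read 526.4 under high salt and 362.2 under low salt, 1.45-fold higher, although a dimmer probe set read 97.6 against 146.0. The 3 hexokinase probe sets among the array's controls, which the annotation gives to Hk1, read 167.7 against 101.7, 121.5 against 63.9 and 57.2 against 27.2. Thus 4 of the 5 Hk1 probe sets read higher in the high-salt heart, and 1 of the 5 was above the noise floor on both arrays. The 3 controls carry the name of 1 gene and are not independent readings. Of all 5707 probe sets measured, 56.0% were below 0. Hk2, the hexokinase typical of muscle, read 194.8 against 214.4.

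Proteins at or near the contact sites of the mitochondrial membranes showed no common direction. Tspo, an outer membrane protein, read 609.3 under high salt and 537.7 under low salt. Ppif, which encodes cyclophilin D, a regulator of the permeability transition pore, read 459.3 against 396.1. Hspa9, a chaperone of the matrix, read 459.5 under high salt and 597.1 under low salt, and its other probe set above the noise floor read 147.4 against 236.3. Of the 4 probe sets of Bcl2l1, a regulator of cell death at the outer membrane, 1 reached the noise floor on an array, with 49.9 against 151.5, while the brightest read 112.3 against 91.6. Of the 9 genes measured in the list that joins these with the hexokinases, none was past 1.5-fold in its brightest probe set, where 14.1% of all genes were higher and 17.4% lower by that rule, with a median log2 ratio of 0.18.

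Other carriers of the inner membrane differed between genes. Slc25a11, which exchanges malate for 2-oxoglutarate, read 1135.9 under high salt and 1506.8 under low salt, and its second probe set read 413.0 against 625.2. Slc25a20, the carnitine and acylcarnitine carrier, read 122.7 against 259.0 and was at least 2.05-fold lower once the high-salt reading was raised to the noise floor. Ucp2, an uncoupling protein, read 1825.2 under high salt and 1446.8 under low salt, a log2 ratio of 0.34. Its other probe set, with 832.3 against 640.3, gave 0.38. The carriers thus include genes lower and genes higher, as the translocators do.

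**Figure D4:**
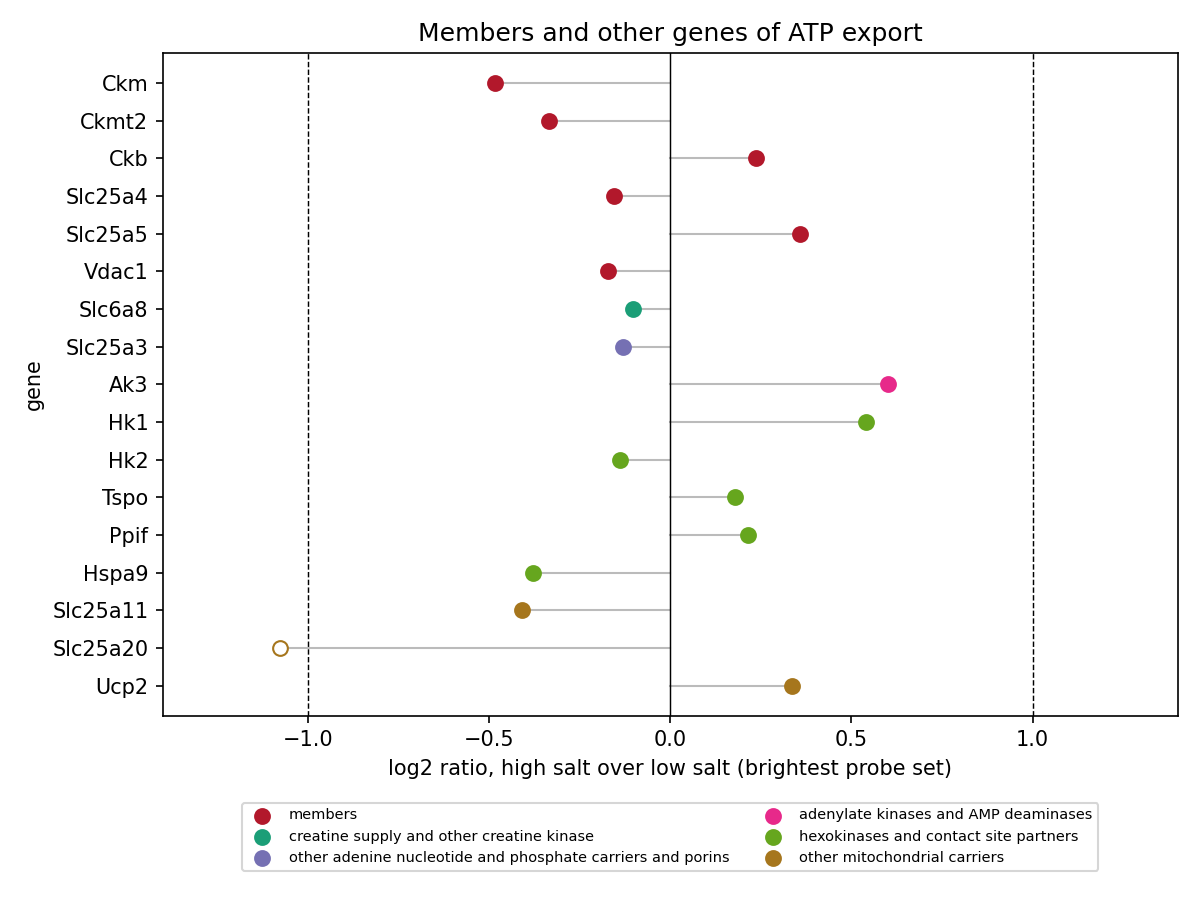
Log2 ratio (high over low salt) in the brightest probe set of the 6 genes and of the 11 other listed genes that reach the noise floor on at least 1 array, coloured by list, with an open circle where 1 array stayed under it and dashed lines at 2-fold. Slc25a20 alone passes a dashed line, and Ak3, Hk1, Slc25a5, Ucp2, Ckb, Ppif and Tspo lie to the right of 0.

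Markers of heart muscle and of other cells are given beside these ratios, and their part in the results was not tested. In their brightest probe sets, 7 of 8 measured cardiomyocyte markers were within 1.5-fold, and the remaining one was Nppa, at 5997.7 against 833.4. Without Nppa these log2 ratios ran from -0.21 to 0.16 with a median of -0.10, and their summed intensity was 37589.9 under high salt and 37900.2 under low salt. Over all 11 probe sets of these genes above the noise floor on both arrays, the log2 ratios ran from -0.94 to 0.16, with 7 below 0 and 4 above 0. The Ckm and Ckmt2 ratios lay inside that wider range, and 3 of the 11 were at or below the -0.48 of Ckm. Those were 2 of the 3 probe sets of Myh6, a cardiac myosin heavy chain, at 1706.2 against 3276.7 and 1673.2 against 2398.5, and the dimmer one of Tnni3, at 2844.5 against 3976.3. The brighter probe set of Tnni3, cardiac troponin I, read 5503.1 against 6264.6. Myl2, a ventricular myosin light chain, read 7677.8 against 6884.4 and Actc1, cardiac actin, 8364.9 against 7848.9. These named markers of heart muscle were far above the noise floor on both arrays. Ryr2, which sets the -0.21 end of the range without Nppa, was under it on both, at 85.5 against 98.7.

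Fibroblast markers read higher on balance. Their summed intensity was 3608.6 under high salt and 2476.4 under low salt, with a median log2 ratio of 0.55 over 8 genes. Of these, 4 were at least 1.5-fold higher and 1 at least 1.5-fold lower, against 14.1% and 17.4% of all genes. Among the 6 fibroblast genes that reach the noise floor on an array, 3 were higher and 0 lower by that rule, with readings raised to that floor. Vim, an intermediate filament of such cells, read 975.5 against 564.8. In contrast, Col3a1, a fibrillar collagen, read 545.4 against 599.5 and 308.9 against 416.2, and Pdgfra, a growth factor receptor, 140.0 against 158.6 in its brightest probe set. Smooth muscle markers, of tissue that expresses Ckb, summed to 3330.9 against 2347.6 over 6 genes, of which Des and Acta2 reached the noise floor and Des is also made by heart muscle. Acta2 read 378.5 against 314.6, and Cnn1 lay under the lower floor on both arrays.

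Of red cell markers, 3 of 3 were at least 2-fold higher in their brightest probe sets, against 7.30% of all genes. They summed to 7944.9 against 3134.8, and 1 of the 3 was above the noise floor on both arrays. Slc4a1 was counted with 264.6 against 119.8, while its only probe set above that floor on both arrays read 168.3 against 174.8. Leukocyte markers summed to 1148.6 against 1346.8 over 6 genes, with 3 at least 2-fold higher and 1 lower, or 1 higher and 1 lower among the genes that reach the noise floor. The lower one was Cd74, at 507.3 against 1144.4, which makes up most of the low-salt sum, and the higher one Lyz2, at 458.6 against 130.4. Endothelial markers summed to 175.4 against 134.6 over 3 genes, none of which reached the noise floor on either array. Fat markers summed to 1170.1 against 1265.1 over 3 genes, of which Fabp4 and Lep reached the noise floor, Lep only in its brightest probe set. Plin1 and Cfd were under the lower floor. Nerve and glia markers, of tissue rich in the brain form of creatine kinase, were under the noise floor in all 7 genes on the array, and Mbp, Nefm, S100b and Th were under the lower floor in all their probe sets. Skeletal muscle markers, of tissue rich in Ckm, summed to 427.7 against 551.0 over 6 genes, with Myh2 and Tnni2 under the lower floor and Myh1 (285.8 against 345.0) the one above the noise floor. Housekeeping and ribosomal genes had a median log2 ratio of -0.0091 over 9 genes, with Eef1a1, at 1041.2 against 632.8, the one past 1.5-fold.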

How the data were processed

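Per the labels' protocols, total RNA of rat heart was transcribed in vitro into biotin-labelled cRNA and fragmented. The authors deposited intensity values on a linear scale, 1 for each probe set of an array; the sources used here do not name the software or give detection calls. Equal 2% trimmed means showed that the arrays had been scaled before deposit, so values were used as deposited. With 1 array per group no test was possible, and the number of arrays limits the precision.

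Values under a lower floor of 10.9 (the 40th percentile of both arrays without 59 controls) were set to it before taking log2 of high over low salt, and a probe set under it on both arrays was left out, which left 5707 measured. A noise floor of 126.4 stands in for a detection call. Gene symbols came from the 2016 platform annotation (7006 with 1 symbol, 308 with several, 1426 with none). Ratios are per probe set for the 6 genes, and from the brightest probe set (highest mean log2 value) for lists. Listed genes were named if they reach the noise floor on at least 1 array. Gatm, Gamt, the dim adenine nucleotide genes, the hexokinase controls and Ryr2 were named after their values were seen. The members and lists were chosen with earlier results of these data known. Alternatives were other floors, log2(value + 1), scaling by quantiles, by loess (span 0.4) or by the median, a 1.5-fold threshold, probe set type, the median of a gene's probe sets and, added later, centring on the added controls. Steps were tested on simulated data with effects of 2-fold or more. Recovery of differences as small as those of the 6 genes was not tested. Software was statsmodels 0.14.6, scipy 1.17.1, pandas 2.3.3, numpy 2.4.6 and matplotlib 3.10.9 under Python 3.11.15.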

Additional observations from a re-analysis of the deposited data

How the results depend on the processing

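The log2 ratios of the 9 probe sets moved by less than the SD of 0.22 under every alternative run. Several of these had little or no room to move them. All 9 lie above the noise floor on both arrays, so the other floors could not change them. Readings this bright are hardly changed by log2(value + 1), and each centring moves all 9 by the same amount. Over the alternatives run, Ckm ran from -0.48 to -0.29 and the Ckmt2 probe sets from -0.36 to -0.05. The Ckb probe sets ran from 0.23 to 0.69 and Slc25a5 from 0.35 to 0.55. Slc25a4 ran from -0.23 to 0.04 and the Vdac1 probe sets from -0.17 to 0.13, above 0 with centring on the added controls alone. That setting took the median of the 9 probe sets to 0.04. The Ckb minus Ckm difference ran from 0.71 to 0.85 and the Slc25a5 minus Slc25a4 difference from 0.51 to 0.58. No alternative run brought any of the 9 probe sets past 2-fold. Past 1.5-fold there was 1 case, the dimmer Ckb probe set at 0.69 (1.61-fold higher) with centring on the added controls. Of the 25 other genes, 4 were at least 2-fold lower and 0 higher as deposited. Fewer were lower with the floor at the 60th percentile (2) or with the noise floor (1), because dim genes are then raised to the floor. With log2(value + 1), which also keeps listed genes under the lower floor, 5 were lower and 1 higher. At 1.5-fold 5 were lower and 1 higher, against 17.4% and 14.1% of all genes. Centred on the added controls, 3 were at least 2-fold lower and 0 higher. A floor at the 20th percentile was not run because that percentile lies below 0. No paired analysis was possible because each diet has 1 array. Leaving out a replicate was not possible for the same reason.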
